A study of Homo sapiens with 8 samples.

Results

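The 10 genes described here encode the machinery of the transcription factor NF-κB: the 5 subunits (*NFKB1*, *NFKB2*, *REL*, *RELA* and *RELB*), 3 IκB inhibitors (*NFKBIA*, *NFKBIB* and *NFKBIE*) and a pair of feedback genes (*TNFAIP3* and *BIRC3*). They were chosen by name, with earlier results of these data known, and all 10 had a row among the 13307 genes of the table of normalized counts. The libraries came from PANC-1, an established human cell line from a carcinoma of the pancreatic duct, in a study of whether the chromatin reader PHF13 is needed for the epithelial-to-mesenchymal transition (EMT) that TGFβ induces. There were 4 groups with 2 libraries each: siControl cells, which received a non-targeting siRNA, siPHF13 cells, which received siRNAs against *PHF13*, and the same transfections followed by TGFβ at 10 ng/ml for 48 h (siControl + TGFβ and siPHF13 + TGFβ). All 8 libraries therefore came from transfected cells of a single line, and no library from untransfected cells was analysed here. Polyadenylated RNA was measured, so protein amounts and the location of the subunits in the cell were not.

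NF-κB binds DNA as pairs of subunits. In resting cells IκB proteins hold these pairs in the cytoplasm, and stimuli such as TNF or interleukin 1 act through a kinase complex that marks the inhibitors for destruction and frees the pairs to enter the nucleus. Freed NF-κB switches on genes for inflammation and survival and also the genes of its own inhibitors, which closes a feedback loop. In pancreatic cancer the pathway is known for constant activity.

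Between 39196214 and 46700806 reads per library lay on the genes of the table. *PHF13* itself had 1804 and 1662 normalized counts in siControl and 524 and 558 in siPHF13 libraries, and 1586 and 1709 against 513 and 529 with TGFβ, so depletion was present in both states. The methods list more than 1 siRNA against *PHF13* without saying whether they were pooled, and effects of these siRNAs on other transcripts cannot be told apart from those of depletion. With TGFβ *SMAD7*, an inhibitor of the TGFβ pathway that TGFβ itself induces, rose to 211% of its level in siControl cells and to 171% in siPHF13 cells. All 6 epithelial markers examined were measured (*KRT7*, *KRT8*, *KRT18*, *KRT19*, *EPCAM* and *KRT80*). Of markers of other cell types, *PDGFRB* lay between 25.6 and 57.1 normalized counts, *CD14* between 23.7 and 78.7, and *CD68*, which is also a lysosomal gene of many cell types, between 6137 and 13400. The other markers sought had no row among the genes of the table. They were *PDGFRA*, *DCN* and *LUM* of fibroblasts, *PTPRC* and *CD3E* of leukocytes, *PECAM1*, *CDH5* and *VWF* of endothelium, and *PRSS1*, *CPA1* and *CELA3A* of acinar cells. After depletion 1 of the 6 epithelial markers was called higher and 0 lower without TGFβ (*EPCAM*, log2 fold change 0.78), beside 7.95% and 10.4% of all genes. There 3 of the 6 lay above and 3 below 0. On the adjusted p alone 3 were higher and 1 lower (23.1% and 24.3% of all genes). The lower one was *KRT18*, at -0.33 (adjusted p = 0.00101, limma). With TGFβ 2 were called higher and 0 lower (*EPCAM*, 0.94, and *KRT19*, 0.76), beside 8.81% and 11.7% of all genes. On the adjusted p alone 3 were then higher and 0 lower (24.5% and 25.9% of all genes). *CD68* was called higher in both states (0.77 and 0.79), whereas *CD14* stood at -0.77 (adjusted p = 0.129, limma) and 0.19 (adjusted p = 0.721, limma). The part of these markers in the results below was not tested. In bulk RNA, fewer cells with a transcript and less of it per cell cannot be told apart.

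Many of these genes carry in their promoters the element that NF-κB binds, called the κB site. The stretches below, from RefSeq on GRCh38.p14, show the κB consensus in capitals within promoter windows of 250 bases before and 50 bases after a transcription start. They show 1 stretch for each of the 7 genes with a match, so that genes that fell after depletion can be read beside *NFKBIB*, which did not. *NFKB2*, *BIRC3* and *NFKBIB* had further stretches with a match, which are not printed. The stretch shown for *NFKB2* is the one with the classical κB site. All are written 5′ to 3′ on the strand of the gene.
*BIRC3* (chr11:102317275-102317304, plus strand): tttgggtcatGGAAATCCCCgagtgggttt
*NFKBIA* (chr14:35404811-35404840, minus strand): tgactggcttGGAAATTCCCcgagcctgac
*TNFAIP3* (chr6:137867188-137867217, plus strand): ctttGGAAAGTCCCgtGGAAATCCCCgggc
*NFKB2* (chr10:102395674-102395703, plus strand): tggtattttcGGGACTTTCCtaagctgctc
*NFKB1* (chr4:102501300-102501329, plus strand): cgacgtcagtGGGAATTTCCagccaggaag
*REL* (chr2:60881518-60881546, plus strand): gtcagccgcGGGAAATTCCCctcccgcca
*NFKBIB* (chr19:38899932-38899960, plus strand): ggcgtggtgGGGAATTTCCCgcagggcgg

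The κB consensus, a motif of 10 letters, was searched on both strands. It is GGGRNNYYCC, with R for A or G, Y for C or T and N for any letter. In the stretches of *REL* and *NFKBIB* 2 matches overlap, so the capitals run longer than the motif. Of the 8 genes with an entry (13 windows), 7 had it in at least 1 window (87.5%), compared with 13.3% of the 27305 genes with an entry. By window it was present in 8 of 13 (61.5%) against 11.3% of all 35116. The exception was *RELA*, with no match in either of its windows, and *RELB* and *NFKBIE* had no entry. In *TNFAIP3* a pair of sites stood 67 to 46 bases before the start, in *NFKBIA* a site lay 81 to 72 bases before it, and in *BIRC3* the sites began 199 and 135 bases before it. The letters in capitals in the *NFKB2* stretch, which are the classical form of the site and occurred on either strand in 0.191% of all windows, were found in 2 of the 13 (15.4%), those of *NFKB2* and *TNFAIP3*. Matches were present both in genes that fell past the thresholds (*BIRC3*, *TNFAIP3*, *NFKBIA* and *NFKB2*) and in *NFKBIB*, which was higher after depletion. A match describes letters in these windows and not a bound site.

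**Figure D1:**
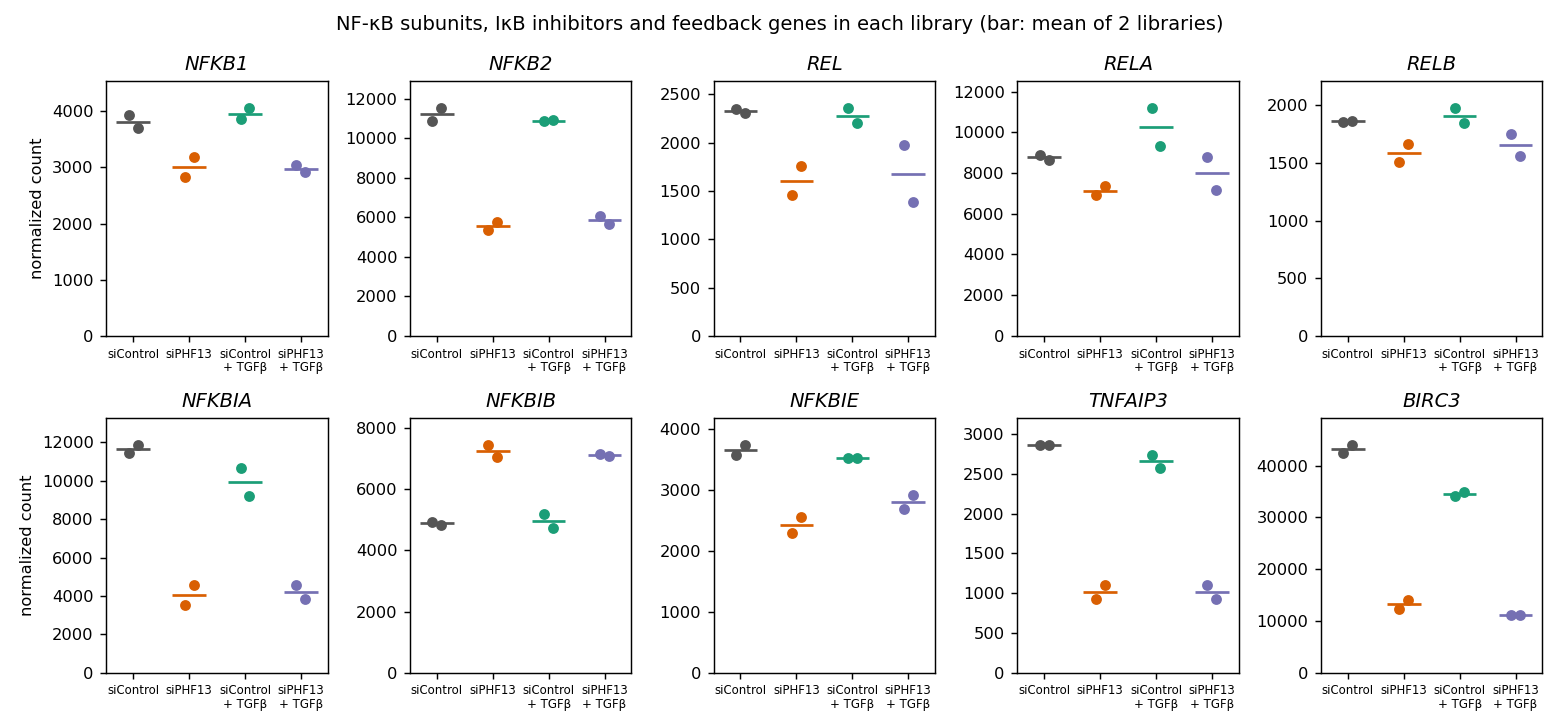
Normalized counts (vertical axes, from 0) of the 10 genes in the 4 groups, with a point for each library and a bar at the mean of the 2 libraries. *BIRC3*, *TNFAIP3*, *NFKBIA* and *NFKB2* drop in both siPHF13 groups and *NFKBIB* is higher there, and *BIRC3* is also lower with TGFβ than without it in siControl cells.

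To ask how depletion of PHF13 affected these genes, siPHF13 was compared with siControl and, in separate libraries, siPHF13 + TGFβ with siControl + TGFβ. *BIRC3*, *NFKBIA*, *TNFAIP3* and *NFKB2* fell in both comparisons, to between 30.6% and 49.6% of the siControl mean without TGFβ and between 32.3% and 53.6% with it. *NFKBIE* fell past both thresholds in the comparison without TGFβ. A call required both an adjusted p below 0.05 (limma over all genes, Benjamini-Hochberg) and a log2 fold change beyond 0.58 in size. Of the 10 genes, 5 were called lower and 0 higher without TGFβ, where 10.4% of all genes were called lower and 7.95% higher. With TGFβ, 4 were called lower and 0 higher, beside 11.7% and 8.81% of all genes. The 4 genes were called lower in both, as were 8.08% of all genes. On the adjusted p alone, 9 of 10 were lower and *NFKBIB* higher without TGFβ (24.3% and 23.1% of all genes), and 8 were lower and *NFKBIB* higher with TGFβ (25.9% and 24.5%). The median log2 fold change of the 10 was -0.57 without and -0.43 with TGFβ, and that of all genes was within 0.0034 of 0 in both. For all 10 genes both siPHF13 libraries lay outside the range of the siControl libraries, in each comparison (9 lower and *NFKBIB* higher). With 2 libraries a group this is common: 38.8% of all genes were separated in this way in the lower and 38.5% in the higher direction without TGFβ, and 36.1% and 35.6% with it. Together the 10 genes took 0.222% and 0.227% of the reads in siControl, 0.107% and 0.117% in siPHF13, 0.200% and 0.193% in siControl + TGFβ, and 0.114% and 0.107% in siPHF13 + TGFβ libraries. *BIRC3* weighs most in these sums, as it had the most normalized counts of the 10 in every library. Its mean was 43178 in siControl and 13214 in siPHF13 cells.

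Among the subunits, *NFKB2*, whose product is a long precursor that is cut to the partner of RELB in the non-canonical branch, fell furthest. It had 10897 and 11516 normalized counts in siControl, 5348 and 5773 in siPHF13, 10883 and 10917 in siControl + TGFβ, and 6044 and 5643 in siPHF13 + TGFβ libraries. The siPHF13 libraries formed a separate low group whether or not TGFβ was given. The log2 fold change was -1.01 (standard error 0.0639, adjusted p = 4.69e-08, limma) without TGFβ and -0.90 (adjusted p = 1.12e-07, limma) with it.

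*NFKB1* encodes the precursor of the DNA-binding partner of RELA in the canonical pair. Its normalized counts were 3926 and 3695 in siControl, 2827 and 3193 in siPHF13, 3859.5 and 4050.5 in siControl + TGFβ, and 3038 and 2917 in siPHF13 + TGFβ libraries. The groups did not overlap, but the change was modest, with log2 fold changes of -0.34 (standard error 0.0741, adjusted p = 0.0018, limma) and -0.41 (adjusted p = 0.000425, limma), under the fold threshold. *RELA*, the subunit that carries most of the activating function of that pair, had 8883 and 8647 normalized counts in siControl and 6907 and 7364 in siPHF13 libraries, and 11179 and 9316 against 8798 and 7174 with TGFβ. Its libraries with TGFβ were spread widely, so that a siPHF13 + TGFβ library fell within the range of siControl without TGFβ. The log2 fold changes of *RELA* were -0.30 (adjusted p = 0.0198, limma) and -0.36 (adjusted p = 0.00618, limma).

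*REL*, the subunit best known from lymphocytes, had 2351 and 2304 normalized counts in siControl, 1452 and 1759.8 in siPHF13, 2353 and 2199 in siControl + TGFβ, and 1971 and 1387 in siPHF13 + TGFβ libraries. Its replicates in siPHF13 + TGFβ stood 0.51 apart on the log2 scale, the widest gap of any of the 10 genes. The log2 fold changes of -0.54 (adjusted p = 0.0040, limma) and -0.46 (adjusted p = 0.0102, limma) stayed under the fold threshold, which was passed without siPHF13 replicate 2 (-0.68) and without siPHF13 + TGFβ replicate 1 (-0.71), respectively. Of its exon sequence, 33.3% is shared with a long non-coding RNA on the same strand in the annotation used here, so that reads there cannot be assigned to one of them. *RELB*, the subunit of the non-canonical pair, had 1854 and 1869 normalized counts in siControl, 1513 and 1666 in siPHF13, 1975 and 1848 in siControl + TGFβ, and 1753 and 1564 in siPHF13 + TGFβ libraries. It had the smallest log2 fold changes of the 10, -0.23 (adjusted p = 0.0373, limma) and -0.21 (adjusted p = 0.0552, limma).

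The IκB inhibitors did not move alike. *NFKBIA*, which encodes the inhibitor IκBα that NF-κB itself renews after activation, had 11465 and 11864 normalized counts in siControl and 3548 and 4588 in siPHF13 libraries. With TGFβ it had 10669.8 and 9185 in siControl and 4550.2 and 3859 in siPHF13 libraries. The lowest siControl library was thus above the highest siPHF13 library by a wide margin in either state. The log2 fold change was -1.53 (standard error 0.11, adjusted p = 1.42e-07, limma) without and -1.24 (adjusted p = 8.49e-07, limma) with TGFβ.

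*NFKBIB* encodes IκBβ, an inhibitor of the same pairs with a slower turnover. It had 4917 and 4846 normalized counts in siControl, 7449.9 and 7066 in siPHF13, 5186 and 4738 in siControl + TGFβ, and 7151 and 7088 in siPHF13 + TGFβ libraries. It was the sole gene of the 10 that was higher in siPHF13 cells, at 149% and 143% of the siControl mean. The log2 fold changes of 0.57 (standard error 0.0639, adjusted p = 7.75e-06, limma) and 0.52 (adjusted p = 1.52e-05, limma) lay just under the fold threshold. It was passed without siControl replicate 1 (0.582) or siPHF13 replicate 2 (0.61), and, with TGFβ, without siControl + TGFβ replicate 1 (0.588). *NFKBIE*, which encodes IκBε, had 3569 and 3740.1 normalized counts in siControl, 2298 and 2553 in siPHF13, 3523 and 3535 in siControl + TGFβ, and 2682 and 2924 in siPHF13 + TGFβ libraries. It was lower after depletion in both states, at -0.59 (adjusted p = 2.14e-05, limma) and -0.33 (adjusted p = 0.00199, limma). The call without TGFβ lay at the threshold and was lost without siControl replicate 2 (-0.56) or siPHF13 replicate 1 (-0.52).

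Because the lengths of these transcripts differ, levels of different genes were compared per kb of the MANE Select transcript. On this scale *NFKBIA* made up 56.6% and 57.3% of the summed level of the 3 inhibitors in the siControl libraries, and 23.9% and 29.5% in siPHF13 libraries. *NFKBIB* went the other way, from 31.7% and 30.6% to 65.7% and 59.5% of the sum. With TGFβ the share of *NFKBIA* was 53.9% and 51.8% in siControl against 29.0% and 25.6% in siPHF13 libraries. The ratio of *NFKBIA* to *NFKBIB* per kb was 1.78 and 1.87 in siControl, 0.364 and 0.497 in siPHF13, 1.57 and 1.48 in siControl + TGFβ, and 0.487 and 0.416 in siPHF13 + TGFβ libraries. Which inhibitor was the most abundant transcript therefore depended on PHF13 depletion in both states. These shares and ratios were chosen after the values had been seen and were not tested.

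**Figure D2:**
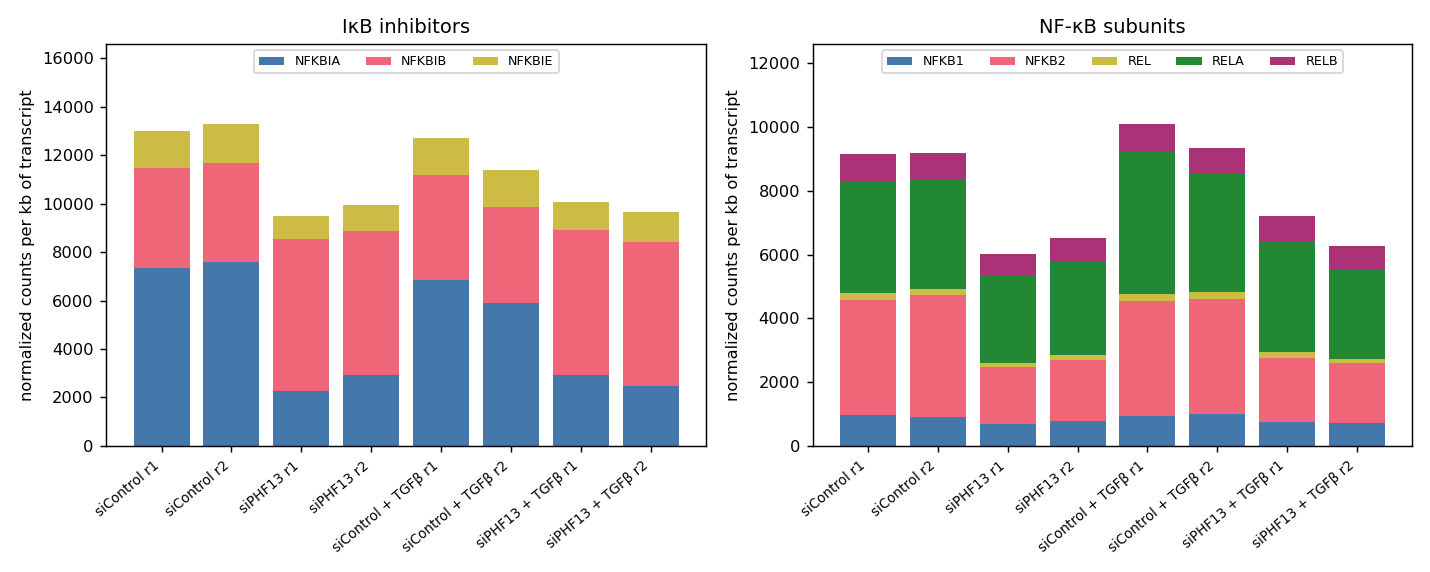
Normalized counts per kb of transcript (vertical axes, from 0), stacked by gene, for the IκB inhibitors (left) and the subunits (right) in each of the 8 libraries. In siPHF13 libraries the *NFKBIA* segment shrinks and that of *NFKBIB* grows, and the total of the subunits is lower, mainly through *NFKB2*.

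Among the subunits per kb, *NFKB2* and *RELA* were the most abundant in every library. *NFKB2* took 39.5% and 41.5% of the summed subunit level in siControl and 29.5% and 29.3% in siPHF13 libraries, and *RELA* took 38.6% and 37.3% and then 45.6% and 44.8%. *REL* was the lowest, with between 1.995% and 2.46% in the 8 libraries. The order of all 10 genes per kb in siControl cells was *NFKBIA* (7482 per kb), *BIRC3* (6279), *NFKBIB* (4095), *NFKB2* (3717), *RELA* (3482), *NFKBIE* (1559), *NFKB1* (939.7), *RELB* (824), *TNFAIP3* (614) and *REL* (209.5), and the ranges of neighbours did not overlap. In siPHF13 cells *NFKBIB* came first (6089 per kb), ahead of *RELA* (2835), *NFKBIA* (2609), *BIRC3* (1921) and *NFKB2* (1844). There the ranges of *RELA* and *NFKBIA*, of *BIRC3* and *NFKB2*, and of *NFKB1* and *RELB* overlapped. In siControl + TGFβ cells *NFKBIA* (6368 per kb) and *BIRC3* (5022) again came first, with overlapping ranges of *NFKBIB* and *RELA* behind them. In siPHF13 + TGFβ cells *NFKBIB* (5973 per kb) and *RELA* (3173) led, and the ranges of *RELA* and *NFKBIA* and of *RELB* and *NFKB1* overlapped. The order depends on the length used: per kb of all annotated exons *BIRC3* (5769) preceded *NFKBIA* (3437) in siControl cells, and *RELB* and *TNFAIP3* preceded *NFKB1*.

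Of the feedback genes, *TNFAIP3* encodes a ubiquitin-editing enzyme that shuts off signalling upstream of the kinase complex. It had 2863 and 2865 normalized counts in siControl, 928 and 1098 in siPHF13, 2743 and 2578 in siControl + TGFβ, and 1108 and 924 in siPHF13 + TGFβ libraries. In siPHF13 cells 35.4% of the siControl mean was left without TGFβ and 38.2% with it. The log2 fold change was -1.50 (standard error 0.101, adjusted p = 8.13e-08, limma) without and -1.39 (adjusted p = 1.30e-07, limma) with TGFβ.

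*BIRC3*, a ubiquitin ligase that binds the TRAF adaptors and protects cells from death, fell the most of the 10 genes. It had 42378 and 43978 normalized counts in siControl, 12345 and 14083 in siPHF13, 34165 and 34907 in siControl + TGFβ, and 11183 and 11116 in siPHF13 + TGFβ libraries. The 4 groups were separate, with siControl highest and siPHF13 + TGFβ lowest. Depletion changed it by -1.71 (standard error 0.0659, adjusted p = 8.82e-10, limma) and -1.63 (adjusted p = 9.31e-10, limma) on the log2 scale, leaving 30.6% and 32.3%. Its neighbour and paralogue *BIRC2*, named after its values were seen, had log2 fold changes of -0.43 and -0.52. The ratio of *BIRC3* to *BIRC2* per kb was 1.79 and 1.89 in siControl, 0.695 and 0.819 in siPHF13, 1.31 and 1.37 in siControl + TGFβ, and 0.640 and 0.598 in siPHF13 + TGFβ libraries.

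**Figure D3:**
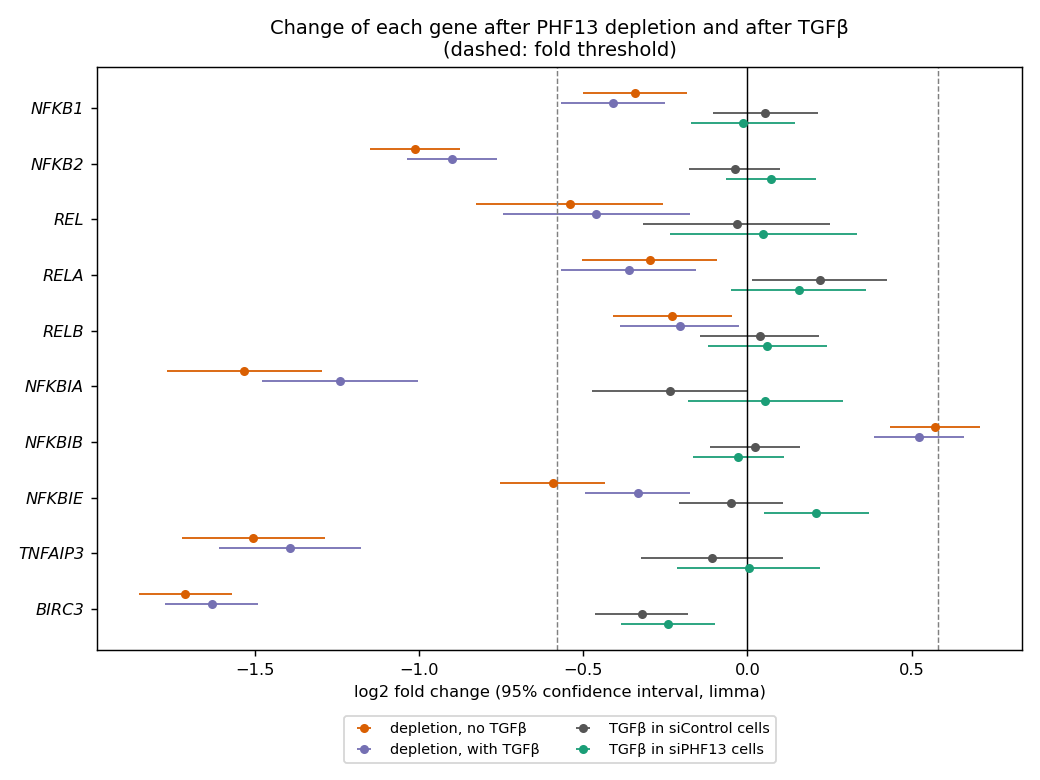
Log2 fold changes (horizontal axis) of the 10 genes with 95% confidence intervals from limma, for depletion without and with TGFβ and for TGFβ in siControl and siPHF13 cells, and dashed lines at the fold threshold. The depletion effects of *BIRC3*, *TNFAIP3*, *NFKBIA* and *NFKB2* lie left of the threshold in both states, and all TGFβ effects lie between the dashed lines.

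The comparison of siControl + TGFβ with siControl asked whether TGFβ itself moved these genes. Of the 10 genes, 0 were called (limma), where 3.27% of all genes were called higher and 1.52% lower. The tests of edgeR and DESeq2 on recovered reads also called 0. An unadjusted p under 0.05 (limma) was reached by 2, *RELA* and *BIRC3*. At least 15.9% of all genes reached it too, as that share passed the adjusted p in either direction. The 2 of 10 therefore do not stand out by this count. *BIRC3* stood at 80.0% of its siControl mean, -0.32 on the log2 scale (standard error 0.0659, adjusted p = 0.0041, limma), which passed the adjusted p but not the fold threshold. Of all genes, 6.67% were lower on the adjusted p, those past the fold threshold included. *RELA* was 0.22 higher on the log2 scale (adjusted p = 0.147, limma) and *NFKBIA* 0.24 lower (-0.24, adjusted p = 0.176, limma). For the other 7 genes the log2 fold change lay between -0.11 and 0.054. This comparison shares its siControl libraries with the depletion comparisons.

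In siPHF13 cells TGFβ called 0 of the 10 genes as well (limma, and edgeR and DESeq2 on recovered reads), beside 1.13% of all genes called higher and 0.218% lower. An unadjusted p under 0.05 (limma) was reached by 2, *NFKBIE* and *BIRC3*. The share of all genes at that unadjusted p was not computed, so these 2 are not read as standing out. On the log2 scale the differences were -0.24 for *BIRC3* (adjusted p = 0.0715, limma) and 0.21 for *NFKBIE* (adjusted p = 0.191, limma). An interaction term then tested whether the TGFβ response differed between siPHF13 and siControl cells (positive where it was higher in siPHF13 cells). No gene of the 10 was called (0 by limma, edgeR and DESeq2, 0.308% of all genes). At an unadjusted p under 0.05 (limma), for which the share of all genes was again not computed, there was 1. That gene was *NFKBIE*, with a difference of 0.26 on the log2 scale (95% confidence interval 0.034 to 0.48, adjusted p = 0.429, limma). For *NFKBIA* the difference was 0.29 (interval -0.043 to 0.63, adjusted p = 0.609, limma), and for *BIRC3* it was 0.080 (interval -0.12 to 0.28, adjusted p = 0.867, limma). These intervals do not show that the depletion effects with and without TGFβ were equal.

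**Figure D4:**
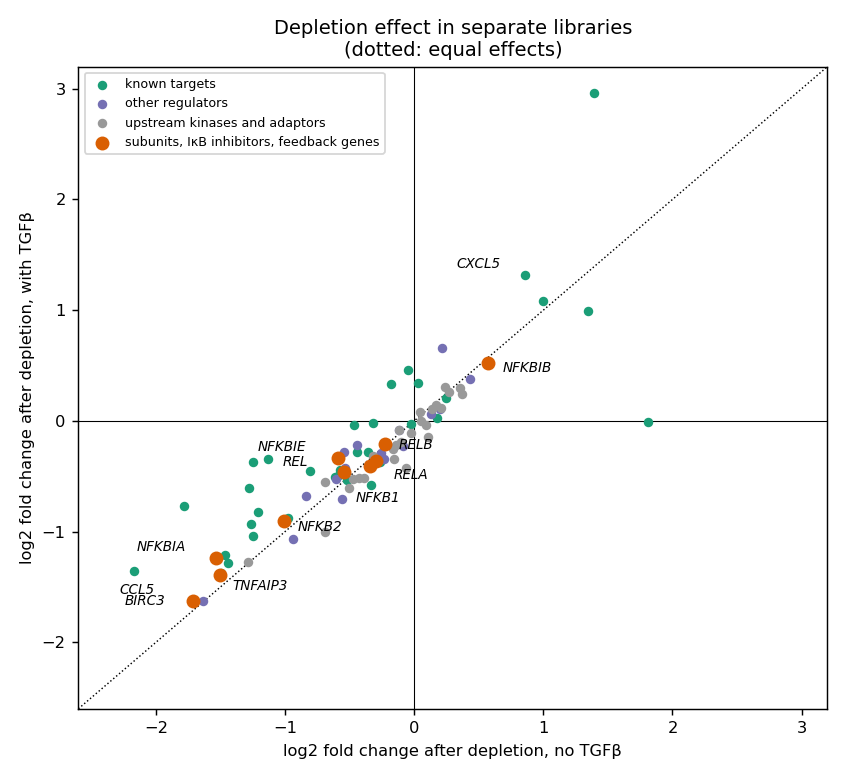
Log2 fold change after PHF13 depletion without TGFβ (horizontal axis) against that with TGFβ (vertical axis), for the 10 genes (large points) and other pathway genes, with a dotted line at equal effects. The 2 axes rest on separate libraries, and *BIRC3*, *TNFAIP3*, *NFKBIA* and *NFKB2* lie at the lower left and *NFKBIB* at the upper right.

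Other genes of the pathway were examined in lists by role, and their counts are to be read against the shares of all genes called lower and higher (10.4% and 7.95% without TGFβ, 11.7% and 8.81% with it). The upstream kinases and adaptors, which carry the signal from receptors to the inhibitors, stayed closest to the centre of all genes. Of 26 measured, 3 were called lower and 0 higher without TGFβ, with a median log2 fold change of -0.082, and 3 lower and 0 higher with TGFβ, with a median of -0.17. These counts by both thresholds were near the shares of all genes. On the adjusted p alone 8 of the 26 were lower and 4 higher without TGFβ, beside 24.3% and 23.1% of all genes. With TGFβ 12 were lower and 4 higher, beside 25.9% and 24.5%. Those that fell without TGFβ were *IKBKE*, an IκB kinase relative (-1.28), and the adaptors *TRAF1* (-0.69) and *TRAF5* (-0.69). With TGFβ they were *IKBKE* (-1.27), *TRAF1* (-1.001) and the receptor-associated kinase *IRAK4* (-0.60).

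Of 17 other regulators, mostly brakes on the pathway, 4 fell and 0 rose without TGFβ (median -0.26), and 4 fell and 1 rose with it (median -0.29). Of all genes, 10.4% were called lower and 7.95% higher without TGFβ, and 11.7% and 8.81% with it. *TNIP1*, a ubiquitin-binding partner of the TNFAIP3 protein, had 11445 and 11369.8 normalized counts in siControl and 3434 and 3918 in siPHF13 libraries, and 13402 and 11986 against 4295 and 3917 with TGFβ. Its log2 fold changes lay between those of *TNFAIP3* and *BIRC3*, at -1.64 (adjusted p = 3.77e-09, limma) and -1.63 (adjusted p = 3.68e-09, limma). *TAX1BP1*, another partner of the TNFAIP3 protein, changed by -0.94 and -1.07, and the deubiquitinase *CYLD* by -0.84 and -0.68. *TNIP2* fell by 0.60 without TGFβ, and *USP7* by 0.70 with it. *PDLIM2*, named after its values were seen, was the one that rose (0.66, adjusted p = 0.0452, limma).

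Among known targets of NF-κB the changes went both ways. Of 34 measured, 13 fell and 4 rose without TGFβ (median -0.50), beside 10.4% and 7.95% of all genes. With TGFβ 9 fell and 4 rose (median -0.37), beside 11.7% and 8.81%. Among targets that averaged 100 normalized counts or more, the greatest falls without TGFβ were those of the chemokine *CCL5* (-2.17), the adhesion molecule *ICAM1* (-1.50), *GCH1* (-1.47) and *CD83* (-1.44). The chemokine *CXCL3*, below that mean and named after its values were seen, fell by more than the last 3 (-1.78, adjusted p = 0.000446, limma). *ICAM1* had 92789 and 95531 normalized counts in siControl and 31287 and 35582 in siPHF13 libraries. With TGFβ *ICAM1* (-1.37), *CCL5* (-1.35) and *CD83* (-1.29) fell, while the chemokine *CXCL5* rose (1.32). The targets that rose, named after their values were seen apart from *CXCL5*, were *BCL2L1*, *LCN2*, *CXCL5* and *IL1A* without TGFβ, and *BCL2L1*, *LCN2*, *CXCL5* and *IL1B* with it. *BCL2L1*, a survival gene of the same target list as the fallen ones, changed by 0.998 and 1.08. *IL1A* and *IL1B* had fewer than 50 normalized counts in every library. In siControl cells TGFβ raised *MMP9* (1.23) and lowered *C3* (-1.07), *CCL20* (-0.93), *LTB* (-0.92), *CXCL5* (-0.92) and *CCL5* (-0.90), the last pair of which were named after their values were seen. The median log2 fold change of the targets was -0.27 there and 0.032 with TGFβ in siPHF13 cells.

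**Figure D5:**
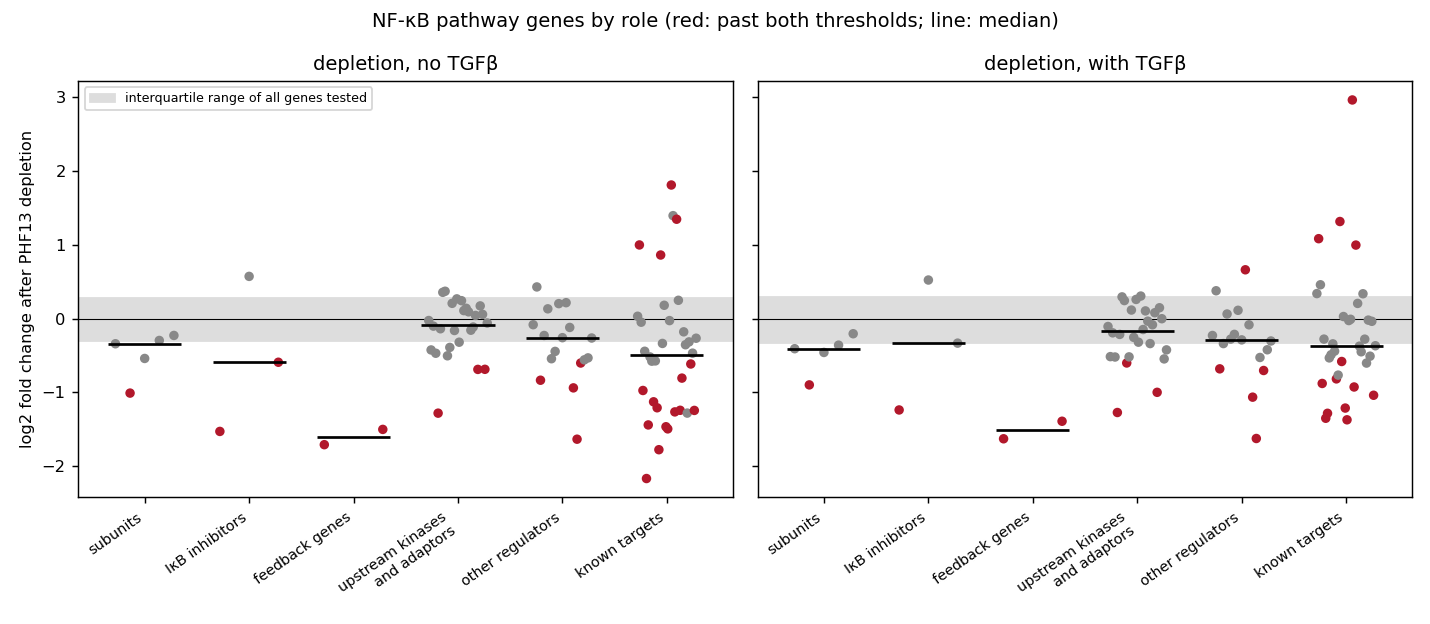
Log2 fold change after PHF13 depletion (vertical axes) of each measured gene by role in the NF-κB pathway, without TGFβ (left) and with TGFβ (right), with red points past both thresholds, a line at each median and a grey band for the interquartile range of all genes. By median the feedback genes lie lowest, and the upstream kinases and adaptors and the other regulators lie within the band. Single targets such as *CCL5* (-2.17 without TGFβ) lie below both feedback genes, and the known targets spread in both directions.

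Of 12 interferon-stimulated genes, many of which also respond to NF-κB, 6 fell, 0 rose and 6 were not called without TGFβ (median -0.80). With it 4 fell, 0 rose and 8 were not called (median -0.26). The shares of all genes called lower and higher were 10.4% and 7.95% without TGFβ, and 11.7% and 8.81% with it. TGFβ in siControl cells lowered 4 of the 12 (median -0.42), beside 1.52% of all genes and 0 of the 10. The part of interferon-stimulated genes in the results was not tested. The share of κB matches by gene differed between the lists: 3 of 23 kinases and adaptors (13.0%), 7 of 16 other regulators (43.8%), 12 of 26 targets (46.2%) and 2 of 8 interferon genes (25%).

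The genes whose pattern over the 8 libraries was most like that of 4 of the 10 were sought by Pearson correlation of log2 values, as a description in which the libraries of a group move together. For *BIRC3* they were *NFE2L3* (r = 0.999), *PARP14* (0.998) and *UGDH* (0.998), for *NFKBIA* *CASP1* (0.998), *TNFAIP3* (0.995) and *IKZF4* (0.995), and for *TNFAIP3* *PAPOLA* (0.999), *COL6A1* (0.997) and *CASP2* (0.997). For *RELB* they were *NHS* (0.994), *ANKRD13D* (0.989) and *TAPBP* (0.985). *TNFAIP3* was thus the second closest of 11200 genes to *NFKBIA*. The reverse did not hold, as *NFKBIA* was not among the 3 genes closest to *TNFAIP3*, whose correlation with *NFKB2* was 0.996. None of the 10 was among the 3 genes closest to *BIRC3* or *RELB*.

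On GRCh37 *NFKBIA* is at chr14:35870285-35873955 on the minus strand, *TNFAIP3* at chr6:138188351-138204451 and *BIRC3* at chr11:102188215-102210134, both on the plus strand, with *BIRC2* next to *BIRC3* at chr11:102217942-102249401. *NFKB2* is at chr10:104153867-104162281, *NFKB1* at chr4:103422487-103538459, *REL* at chr2:61108626-61158747, *RELB* at chr19:45504719-45541450 and *NFKBIB* at chr19:39390340-39399533, all on the plus strand, and *RELA* at chr11:65421070-65430561 and *NFKBIE* at chr6:44225903-44233525 on the minus strand. Exons of *RELA*, *NFKBIB*, *TNFAIP3* and *BIRC3* overlap a gene on the opposite strand by between 1.47% and 1.89% of their length, and the strand setting of the counting is not given in the sources used here.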

How the data were processed

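mRNA of PANC-1 cells was sequenced in 8 libraries, 2 for each of 4 groups taken from the sample labels. Columns headed NT were read as the non-targeting siControl libraries. Per the submitters' processing notes and the methods, the authors trimmed reads with Trim Galore 0.4.1, mapped them to hg19 with STAR 2.7.0, counted reads on exons with HTSeq 0.12.4 and normalized with DESeq2. The deposited values are a signal per gene, counts divided by a size factor of the library. The authors' own comparisons hold fold changes and p-values and were not used. The values of 1 further gene are not reported here. In every library 100% of values were whole multiples of 1 step within 0.01 read, which gave reads for count tests: edgeR 4.0.16 called 2437 genes for depletion without TGFβ and 2724 with it. The main test was limma 3.58.1 (R 4.3.3) with a trended variance on log2(normalized count + 1) over all 8 libraries, so fold changes of low genes are understated. P-values were adjusted over 13307 genes, and a minimum of 10 in 2 libraries removed 0. On simulated data for depletion without TGFβ (13303 genes), 86% and 96% of genes changed by 0.8 and 1.6 on the log2 scale were recovered. The simulation gave all genes and libraries the same relative spread beyond sampling of reads. It did not cover the TGFβ comparisons or changes under the fold threshold. The 10 genes and the lists were chosen with earlier results of these data known. Named genes were these 10, up to 4 called genes of each other list with the largest change and a mean of at least 100, and the 3 genes most like 4 of the 10. Labels do not say that replicates were separate cultures, so p-values measure the spread between libraries only. Gene models are GENCODE v44lift37 (not the authors' annotation). Alternatives were a pseudocount of 5, no minimum, TMM rescaling, the compared libraries alone, a replicate block, adjusted p alone, edgeR, DESeq2 1.42.0 and each library left out.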

Additional observations from a re-analysis of the deposited data

Results flagged for a closer look

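For 4 genes outside the 10, the response to TGFβ in siPHF13 cells differed from that in siControl cells on the adjusted p of the interaction test (limma with Benjamini-Hochberg adjustment over all genes, log2 scale). Of all genes, 0.413% differed on this adjusted p, in either direction, and 0.308% passed both thresholds. *IFIT2* and *IFIT3* also passed the fold threshold, and *PLAU* and *KRT19* did not. The calls of *IFIT2* and *IFIT3* were lost when some single libraries were left out, among them either siControl library. The differences were 0.52 for *PLAU* (adjusted p = 0.0316), 0.78 for *IFIT2* (adjusted p = 0.0255), 0.76 for *IFIT3* (adjusted p = 0.046) and 0.50 for *KRT19* (adjusted p = 0.0255). The log2 fold change with TGFβ was -1.24 in siControl cells and -0.45 in siPHF13 cells for *IFIT2*, and -0.43 and 0.091 for *PLAU*. Only genes of the lists examined here were screened. With 2 libraries a group, no group was large enough to be searched for a library that stands apart.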

How the results depend on the processing

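Of 290 log2 fold changes of single genes recomputed under alternatives other than leaving out a library, 290 kept their direction and side of the thresholds. They do not include those with no minimum, which removed 0 genes and so could not change a value. Without the fold threshold, 10 genes passed for depletion without TGFβ, 9 with TGFβ and 1 for TGFβ in siControl cells. Leaving out 1 library at a time gave 4 to 7 genes called for depletion without TGFβ, 4 to 5 with TGFβ and 0 in the other comparisons. The lone library of a group was then assumed to vary like the other groups. Of 400 such fold changes 366 kept direction and call, 2 lost the call (*NFKBIE*) and 5 gained it (*NFKBIB* and *REL*). The other 27, all of TGFβ or the interaction, changed sign. Over the libraries left out, the genes concerned ranged for TGFβ in siControl cells from -0.079 to 4e-04 (*NFKB2*), -0.082 to 0.016 (*REL*), -0.010 to 0.085 (*RELB*) and -0.043 to 0.087 (*NFKBIB*). For TGFβ in siPHF13 cells they ranged from -0.10 to 0.075 (*NFKB1*), -0.20 to 0.30 (*REL*), -0.022 to 0.14 (*RELB*), -0.13 to 0.24 (*NFKBIA*), -0.066 to 0.011 (*NFKBIB*) and -0.13 to 0.13 (*TNFAIP3*). For the interaction they ranged from -0.16 to 0.021 (*NFKB1*), -0.17 to 0.34 (*REL*), -0.21 to 0.083 (*RELA*), -0.059 to 0.11 (*RELB*), -0.11 to 0.016 (*NFKBIB*), -0.020 to 0.24 (*TNFAIP3*) and -0.015 to 0.18 (*BIRC3*). Over all genes, 41 were called for the interaction, 64 by DESeq2 and between 12 (without siControl replicate 2) and 111 (without siPHF13 + TGFβ replicate 1) with a library left out, and the cause was not tested. On the adjusted p alone, calls went from 2448 to 6308, 2726 to 6712, 637 to 2114 and 179 to 409 for depletion without and with TGFβ and TGFβ in siControl and siPHF13 cells. Replicate numbers did not pair the libraries (correlations of replicate differences between -0.0893 and 0.05), and a replicate block left 5, 4, 0, 0 and 0 genes called. A fit of the compared libraries alone was not run for the interaction, which uses all 8. TGFβ effects within the spread between libraries were not detectable.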
